A study of Homo sapiens with 6 samples.

Results

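The collagen genes of 8505C cells were taken as the protein-coding rows of the deposited gene table whose name is COL, a number, A and a number, which gave 37 of 33539 genes. 8505C is an established line of anaplastic thyroid cancer, an undifferentiated thyroid carcinoma. The cells received an siRNA labelled NC (control, 3 libraries) or an siRNA against POLR1F, a subunit of RNA polymerase I (siPOLR1F, 3 libraries), and poly(A) RNA was sequenced 24 h later. The labels do not say whether replicates were grown as separate cultures, so each p-value reflects variation among the sequenced libraries, and this may be technical. The row of COL23A1 is annotated with a decay transcript alone and was left out by the rule, as were 3 antisense RNAs and the pseudogene COL6A4P1.

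Collagens are extracellular proteins in which 3 chains wind around each other along repeats of glycine and a pair of further residues. The chains are hydroxylated, glycosylated and folded in the endoplasmic reticulum, leave the cell, and are then trimmed and cross-linked into fibrils, networks or filaments. Fibril-forming collagens such as type I are mainly products of fibroblasts, while type IV forms the network of basement membranes on which epithelial cells such as those of the thyroid rest.

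The promoter stretches below are shown because the type IV genes lie head to head in pairs and because COL12A1, which encodes a collagen that sits on fibrils, had the largest change among the expressed collagens. They are RefSeq sequences of build GRCh38.p14, in which 27 of the 37 collagens and 10 of the 14 expressed ones had an entry. Capitals mark the motifs searched on both strands, which were the GC box (GGGCGG), the CCAAT box (CCAAT) and the TATA box (TATAAA). The first stretch is the whole interval between the RefSeq starts of COL4A1 and COL4A2 (chr13:110307158-110307283, plus strand), and the others are the 250 bases before the starts of COL12A1 (chr6:75206054-75206303, minus strand) and COL4A5 (chrX:108439588-108439837, plus strand).
COL4A1-COL4A2 interval: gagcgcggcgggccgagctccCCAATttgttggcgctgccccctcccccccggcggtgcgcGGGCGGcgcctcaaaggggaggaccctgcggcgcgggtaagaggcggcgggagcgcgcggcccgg
COL12A1: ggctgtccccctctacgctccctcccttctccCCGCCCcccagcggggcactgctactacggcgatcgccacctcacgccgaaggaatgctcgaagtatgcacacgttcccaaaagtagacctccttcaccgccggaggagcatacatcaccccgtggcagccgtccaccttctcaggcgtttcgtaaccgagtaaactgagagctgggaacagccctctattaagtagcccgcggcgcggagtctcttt
COL4A5: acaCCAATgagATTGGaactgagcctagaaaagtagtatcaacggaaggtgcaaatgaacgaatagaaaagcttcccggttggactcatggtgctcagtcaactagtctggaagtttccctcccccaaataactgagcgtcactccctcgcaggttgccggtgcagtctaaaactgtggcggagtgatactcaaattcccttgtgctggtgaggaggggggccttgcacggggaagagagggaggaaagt

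The starts of COL4A1 and COL4A2 are 126 bases apart, and this interval holds 1 GC box, 1 CCAAT box and no TATAAA. In windows of 126 bases before all 35116 RefSeq starts, 34.6% held a GC box, 21.1% a CCAAT box and 5.9% a TATA box. The interval has a GC content of 80.2%, against a median of 60.3% in those windows. The starts of COL4A6 and COL4A5 lie 379 bases apart, and the stretch before COL4A5 holds a CCAAT box on each strand, no GC box and a GC content of 51.2%. The COL12A1 stretch holds 1 GC box on the opposite strand and no match to the other motifs. Of all 250-base windows, 42.6% held a GC box, 32.0% a CCAAT box and 10.7% a TATA box. A match describes these letters and is not evidence of a bound site.

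Library totals ran from 60576788 to 63038378 counts, of which collagens took 0.135% to 0.157%. POLR1F was at 8.28 ± 0.592 FPKM (fragment counts scaled to gene length and library size; SD, n = 3) with the NC siRNA and at 1.67 ± 0.368 with siPOLR1F. Of 6 epithelial markers, KRT7 (472 ± 48.4 FPKM in NC), KRT18 (162) and KRT8 (117) were abundant, EPCAM (0.762) and KRT19 (0.729) were low and CDH1 was near 0 (0.0285); KRT8 fell by 0.25 on the log2 scale (adjusted p = 0.0197, edgeR). All 5 mesenchymal markers were expressed, led by VIM (671 ± 29.1). Of 5 thyroid markers, TG, TSHR and SLC5A5 were at or near 0 and PAX8 averaged 0.517 over the 6 libraries. The thyroid factor NKX2-1 fell by 0.71 on the log2 scale, from 45.2 ± 3.02 to 27.5 ± 1.62 FPKM (SD, n = 3; adjusted p = 0.000435, edgeR). None of 6 fibroblast markers reached a mean of 0.5 FPKM, and their summed FPKM was 0.571 to 0.936 in NC and 0.335 to 0.593 in siPOLR1F. The endothelial gene VWF set 3 libraries apart, with 381 counts in NC replicate 2, 446 and 519 in siPOLR1F replicates 1 and 2, and 12, 28 and 0 in NC replicates 1 and 3 and siPOLR1F replicate 3. KDR followed with 79, 89 and 116 against 0, 8 and 4 counts. PECAM1, also endothelial, had 304, 266 and 331 against 94, 69 and 79 counts, while the endothelial gene CDH5 did not follow this split.

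Of the 37 collagens, 14 were expressed, taken as a mean of at least 0.5 FPKM over the 6 libraries, the same limit that a gene had to meet to be tested. COL7A1 lay just inside at 0.805 FPKM, and COL5A2 (0.466) and COL18A1 (0.464) just outside. The most abundant was COL4A2 at 19.5 FPKM, in the upper 14.9% of tested genes, followed by COL6A1 (14.9), COL5A1 (13.2), COL4A1 (13.2) and COL6A2 (11.8). These 5 genes made up 65.0% to 67.9% of the summed collagen FPKM in each library. COL8A1 (7.18), COL12A1 (6.99), COL4A6 (5.91), COL4A5 (5.70) and COL13A1 (4.71) formed a middle group, and COL17A1 (1.31), COL1A1 (0.921), COL3A1 (0.813) and COL7A1 were low. The ranges over the 6 libraries overlapped in 11 of the 13 pairs of neighbours. The exceptions were the steps from COL6A2 to COL8A1 and from COL13A1 to COL17A1. Within each library COL4A2 was still the highest collagen, and COL4A5 was above COL13A1. The order of the other overlapping neighbours is not firm, since it changed between libraries.

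**Figure D1:**
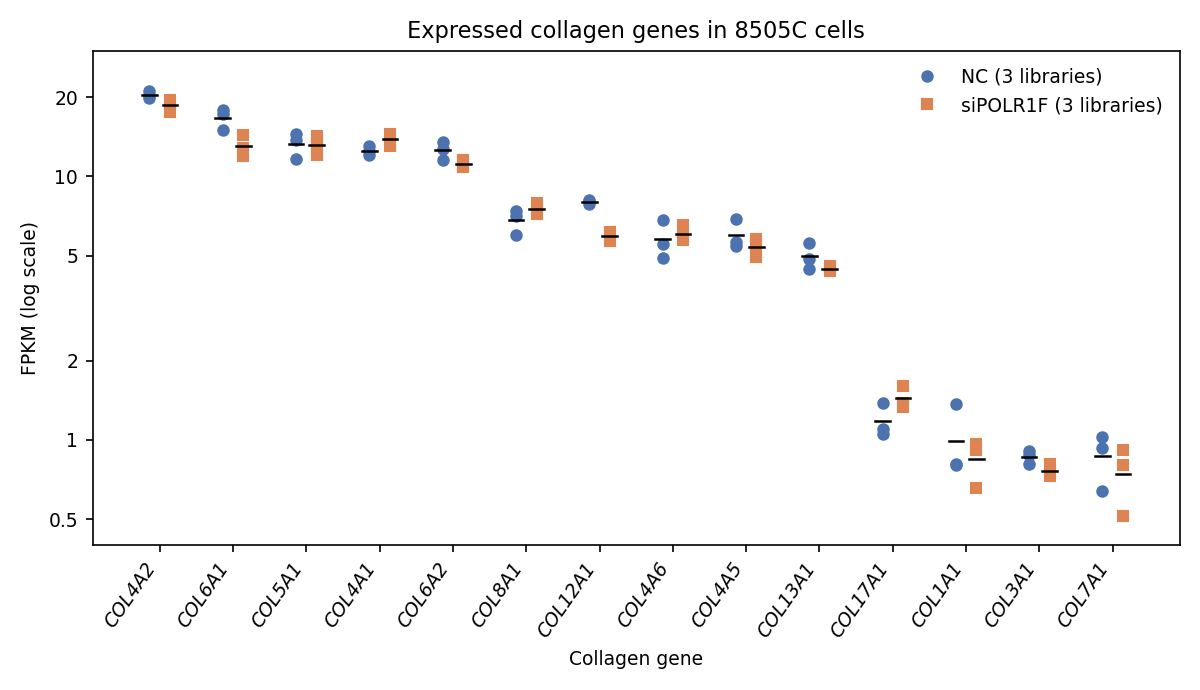
FPKM (log scale) of the 14 expressed collagens in each of 3 NC (circles) and 3 siPOLR1F (squares) libraries, with short lines at the group means. A gap separates the 10 genes at 4.71 FPKM or more on average from the 4 at 1.31 or less, and the siPOLR1F squares of COL12A1 all lie below its NC circles.

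By class, the basement membrane network had 4 of 6 members expressed, the beaded filaments of type VI 2 of 4, the fibril-forming collagens 3 of 11, the fibril-associated collagens 1 of 7 (COL12A1), the short-chain networks 1 of 3 (COL8A1), the transmembrane collagens 2 of 3 (COL13A1 and COL17A1), the anchoring fibrils of COL7A1 1 of 1 and the multiplexins 0 of 2. Of the 23 collagens below the limit, 10 averaged at least 0.1 FPKM, namely COL5A2, COL18A1, COL8A2, COL9A3, COL9A2, COL27A1, COL16A1, COL4A4, COL11A2 and COL11A1. The other 13 were below 0.1 FPKM and included COL1A2, COL6A3, COL4A3, COL2A1, COL5A3, COL10A1, COL14A1, COL15A1, COL21A1, COL22A1, COL24A1, COL25A1 and COL6A6.

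Several expressed chains had a usual partner that was below the limit of 0.5 FPKM. COL1A1 encodes the chain that pairs with COL1A2 in type I collagen, the main collagen of skin and bone. COL1A2 was listed at 0 FPKM in NC replicate 1 and siPOLR1F replicate 3 and reached at most 0.0491. Type VI microfibrils contain the chains of COL6A1 and COL6A2 and a further chain, most often that of COL6A3, which averaged 0.0133 FPKM against 14.9 for COL6A1. COL6A6, another such chain, reached at most 0.00962. COL5A1, which helps to start fibrils, was 28.3 times as abundant per length as its partner COL5A2, and COL8A1, a short-chain collagen of vessel walls and membranes, 23 times as abundant as COL8A2. In type IV the pairs COL4A1 with COL4A2 and COL4A5 with COL4A6 were expressed, while COL4A3 (0.0227) and COL4A4 (0.137), whose chains join that of COL4A5 in the filter of the kidney, were not.

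A shared feature of these genes is how their coding exons are cut, since a repeat of glycine and a pair of residues takes 9 bases. In GENCODE release 29, 13 of the 14 expressed collagens had at least 3 inner coding exons, COL8A1 being the exception. A median of 59.1% of these exons had a length divisible by 9, against 11.8% in 13335 other protein-coding genes. The share was highest in COL1A1 and COL3A1 (89.8% each), fibril formers with long unbroken repeats, and lowest in COL12A1 (20.6%), most of whose protein is made of other domains. These are properties of the annotation and not of the libraries.

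After POLR1F silencing, 2 of the 14 expressed collagens had an adjusted p below 0.05 by edgeR (quasi-likelihood), and both fell. They were COL12A1 and the type VI chain COL6A1. In the same fit 6.94% of 13564 tested genes were lower and 10.3% higher. No expressed collagen was called higher, also by DESeq2 and limma, while at an unadjusted p below 0.05 edgeR had 1 higher and 4 lower. The share of all tested genes at that unadjusted limit was not computed, so these 2 counts have no comparison. The log2 fold change was negative in 10 and positive in 4, with a median of -0.15 over the 14 genes and of -0.01 over all tested genes. The FPKM of the groups did not overlap in 4 of the 14, all lower in siPOLR1F (COL12A1, COL6A1, COL6A2 and COL4A2), where 19% of tested genes did so downward and 18.9% upward. In bulk RNA, fewer cells that express a gene and less of its RNA per cell cannot be told apart. For a single gene the exact two-sided permutation test over 3 against 3 libraries cannot go below p = 0.1, the value it gave for these 4.

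**Figure D2:**
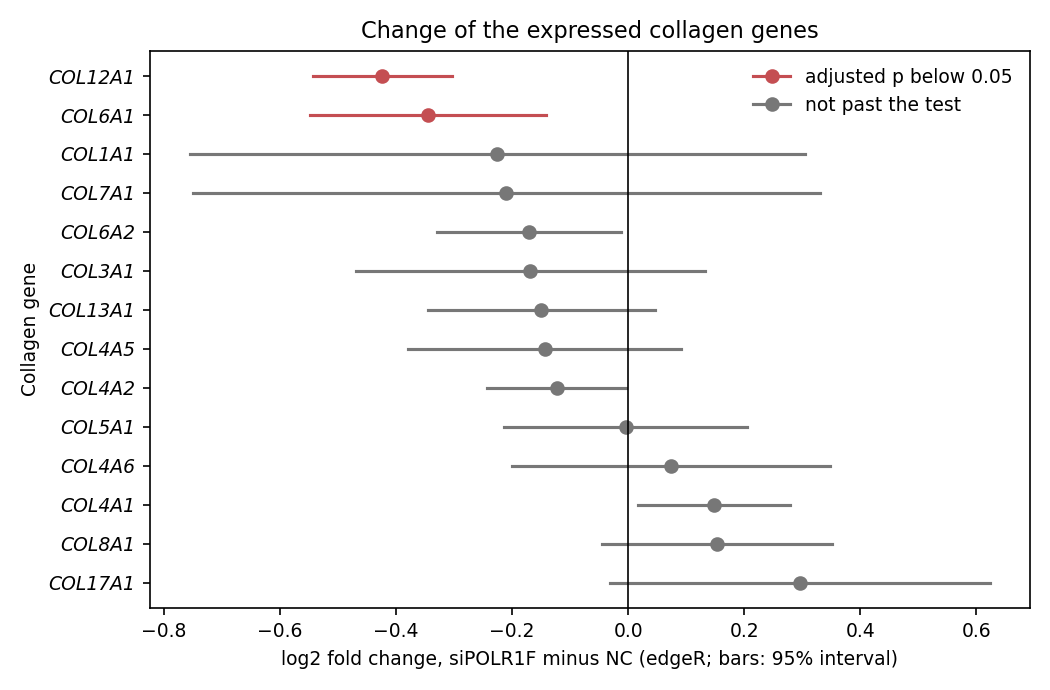
Log2 fold change (siPOLR1F minus NC) of the 14 expressed collagens with its 95% interval from the edgeR fit, red where the adjusted p was below 0.05. COL12A1 (-0.42) and COL6A1 (-0.34) are the 2 genes past the test, and COL5A1 lies at 0.

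COL12A1 (ENSG00000111799, GRCh38 chromosome 6, 75084326 to 75206053, minus strand) was at 8.10, 8.13 and 7.84 FPKM in NC and 5.68, 6.0 and 6.17 in siPOLR1F. Its counts were 10766, 10362 and 10271 against 7433, 7965 and 8075. Every siPOLR1F library lay below every NC library, and the libraries of a group were close to each other. The mean fell by 25.8%, from 8.02 ± 0.163 to 5.95 ± 0.247 FPKM (SD, n = 3), with a log2 fold change of -0.42 (SE 0.05; adjusted p = 0.00148, edgeR). It passed without any single library. Without the 3 libraries with VWF and KDR reads, which leaves 2 NC libraries and 1 siPOLR1F library, the log2 fold change was -0.36 (adjusted p = 0.179, edgeR).

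COL6A1 (ENSG00000142156, chromosome 21, 45981770 to 46005050, plus strand) was at 17.8, 15 and 17.3 FPKM in NC and 12.9, 14.4 and 12 in siPOLR1F. The groups did not overlap, but the gap between NC replicate 2 and siPOLR1F replicate 2 was small. The mean fell by 21.6%, with a log2 fold change of -0.34 (SE 0.09; adjusted p = 0.0318, edgeR). The edgeR adjusted p was 0.081 without NC replicate 1, 0.0925 without NC replicate 3, 0.0922 without siPOLR1F replicate 1 and 0.111 without siPOLR1F replicate 3, so the call rests on all of these libraries. Without the 3 libraries with VWF and KDR reads the log2 fold change was -0.54 (adjusted p = 0.105, edgeR).

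COL6A2 (ENSG00000142173, chromosome 21, 46098112 to 46132848, plus strand), the neighbour of COL6A1, was at 12.7, 11.6 and 13.5 FPKM in NC and 10.9, 11.5 and 10.9 in siPOLR1F. NC replicate 2 and siPOLR1F replicate 2 were nearly level, and the log2 fold change of -0.17 (95% interval -0.33 to -0.01) did not pass (adjusted p = 0.125, edgeR). The ratio of COL6A2 to COL6A1 was 0.712, 0.775 and 0.778 in NC and 0.845, 0.801 and 0.913 in siPOLR1F, higher in each siPOLR1F library. Summed over type VI, the FPKM was 29.3 ± 2.39 in NC and 24.2 ± 1.57 in siPOLR1F (SD, n = 3).

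The chains of the most abundant basement membrane collagen had log2 fold changes of opposite sign, and neither passed the test. COL4A1 (ENSG00000187498, chromosome 13, 110148963 to 110307157, minus strand) was at 13.1, 12.5 and 12 FPKM in NC and 13.1, 14.5 and 13.9 in siPOLR1F, a log2 fold change of 0.15 (95% interval 0.02 to 0.28; adjusted p = 0.113, edgeR). COL4A2 (ENSG00000134871, chromosome 13, 110305812 to 110513209, plus strand) was at 20.4, 19.8 and 21 in NC and 17.5, 19.5 and 18.8 in siPOLR1F, a log2 fold change of -0.12 (95% interval -0.24 to -0.0034; adjusted p = 0.142, edgeR). NC replicate 1 and siPOLR1F replicate 1 were level for COL4A1, and COL4A2 was separated by a narrow gap.

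The ratio of COL4A2 to COL4A1 was 1.55, 1.59 and 1.75 in NC and 1.34, 1.35 and 1.36 in siPOLR1F. It was lower in each siPOLR1F library, and the 3 siPOLR1F values were close together. The log2 difference was -0.27, and the exact two-sided permutation p was 0.1 before and after adjustment over the 3 ratios tested. A p of 0.1 is the smallest that this test can give with 3 against 3 libraries. The table's models of these genes share 1346 bases on opposite strands, and without a stated strand setting reads there may be divided between them. The summed FPKM of 4 endothelial markers, whose cells make much type IV collagen, was 5.62 to 6.94 in NC and 2.37 to 5.05 in siPOLR1F, and CDH5 alone of the 4 was expressed. The lower sum was that of CDH5, which fell from 5.65 ± 0.223 to 2.72 ± 0.671 FPKM (SD, n = 3; adjusted p = 0.00308, edgeR), while PECAM1, VWF and KDR had siPOLR1F means 1.42, 2.23 and 2.34 times those of NC, with overlapping groups. Their part in these values was not tested. The ratio was 1.36 in siPOLR1F replicate 3 and 1.55 and 1.75 in NC replicates 1 and 3, the libraries with nearly no VWF and KDR reads. These libraries were not free of endothelial markers. CDH5 was at 2.22 FPKM in that siPOLR1F library and at 5.43 and 5.88 in those NC libraries.

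COL4A5 and COL4A6, which share chains of one type IV molecule in the membranes of smooth muscle and skin, did not pass either. COL4A5 was at 6.91, 5.62 and 5.46 FPKM in NC and 5.77, 5.49 and 4.95 in siPOLR1F (adjusted p = 0.371, edgeR), and COL4A6 at 6.84, 4.91 and 5.55 and at 6.52, 5.72 and 5.89 (adjusted p = 0.712, edgeR). Both were highest in NC replicate 1, and the groups overlapped. Their ratio, COL4A6 to COL4A5, was 0.990, 0.873 and 1.02 in NC and 1.13, 1.04 and 1.19 in siPOLR1F, higher in each siPOLR1F library by 0.22 on the log2 scale (exact two-sided permutation p = 0.1, also after adjustment). For COL6A2 to COL6A1 the log2 difference was 0.18, with the same p.

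**Figure D3:**
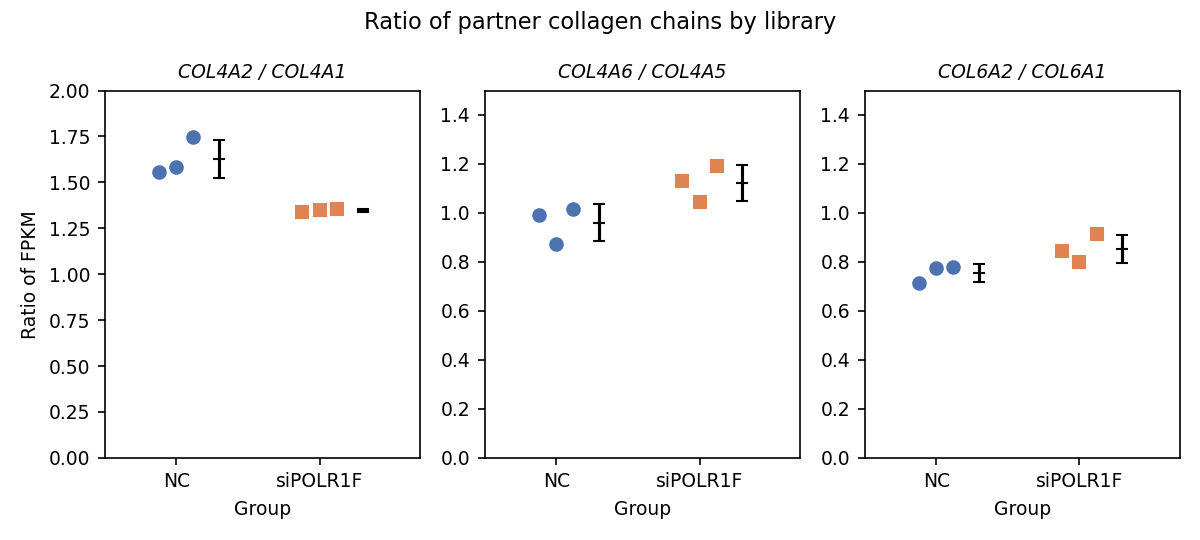
Ratio of FPKM between partner chains in each library (NC circles, siPOLR1F squares), with the group mean and SD (n = 3) beside them. In each panel the 2 groups do not overlap. COL4A2 to COL4A1 is lower in siPOLR1F (1.35 against 1.63), and the other 2 ratios are higher. How often ratios of other gene pairs are apart was not computed.

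Among the fibril formers, COL5A1 had a log2 fold change near 0 (95% interval -0.21 to 0.21; adjusted p = 0.983, edgeR), with 13.2 ± 1.09 FPKM in siPOLR1F (SD, n = 3) beside 13.3 ± 1.48 in NC. COL1A1 was at 0.804, 0.807 and 1.37 FPKM in NC and 0.657, 0.917 and 0.968 in siPOLR1F. NC replicate 3 was the highest, the groups overlapped, and the interval was wide (-0.76 to 0.30; adjusted p = 0.538, edgeR). COL3A1, the partner of type I in soft tissue, had a log2 fold change of -0.17 (-0.47 to 0.13; adjusted p = 0.411, edgeR).

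Collagens anchored in or near the cell membrane did not pass the test. COL17A1, which holds basal epithelial cells to the basement membrane at hemidesmosomes, was at 1.38, 1.05 and 1.10 FPKM in NC and 1.38, 1.33 and 1.60 in siPOLR1F. Its log2 fold change of 0.30 (95% interval -0.03 to 0.62; adjusted p = 0.191, edgeR) was the largest positive one. COL13A1, a transmembrane collagen of cell adhesion sites, was at -0.15 (-0.34 to 0.05; adjusted p = 0.261, edgeR). COL7A1, whose anchoring fibrils tie the basement membrane to the tissue beneath, was at -0.21 (-0.75 to 0.33; adjusted p = 0.578, edgeR), and COL8A1 at 0.15 (-0.04 to 0.35; adjusted p = 0.257, edgeR).

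Of the 10 collagens between 0.1 and 0.5 FPKM, COL4A4 and COL8A2 had groups that did not overlap, both lower, and they were singled out after their values were seen. Of 5459 genes at these levels, 10.5% were apart downward and 5.39% upward. COL4A4 had 163, 138 and 139 counts in NC and 86, 95 and 60 in siPOLR1F, and COL8A2 had 122, 110 and 145 against 77, 75 and 83. Every siPOLR1F library of each was lower. With no limit on expression the log2 fold changes were -0.86 (SE 0.22; adjusted p = 0.106, edgeR) and -0.67 (SE 0.19; adjusted p = 0.132, edgeR). COL5A2 went the other way in that fit (0.58, SE 0.22; adjusted p = 0.273, edgeR), at 0.320, 0.481 and 0.329 FPKM in NC and 0.523, 0.669 and 0.478 in siPOLR1F, with NC replicate 2 just above siPOLR1F replicate 3. The libraries with VWF and KDR reads held its highest values (0.481, 0.523 and 0.669). The part of those reads in the level of COL5A2 was not tested. With the filterByExpr limit of edgeR, COL4A4 was called lower, as were 3.25% of 19357 genes, and COL6A1 was not (adjusted p = 0.0514, edgeR).

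COL18A1, the source of endostatin, varied between libraries more than between groups. It was at 0.375, 0.708 and 0.105 FPKM in NC and 0.749, 0.730 and 0.120 in siPOLR1F, low in replicate 3 of both groups. COL11A1, a cartilage fibril former, was likewise lowest there, with 110, 70 and 17 counts in NC and 88, 123 and 0 in siPOLR1F. The libraries with VWF and KDR reads held the 3 highest values of COL18A1, and the part of those reads in its level was not tested.

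All 37 collagens together summed to 119, 106 and 115 FPKM in NC and 104, 110 and 103 in siPOLR1F. The groups overlapped through NC replicate 2 and siPOLR1F replicate 2, and the means were 114 ± 6.83 and 106 ± 4.28 (SD, n = 3). Type IV made up 39.5% of this sum in NC and 41.7% in siPOLR1F, and type VI 25.8% and 22.9%.

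Of 50 tested genes that make, assemble, bind or degrade collagen, 8 rose and 5 fell, beside 10.3% and 6.94% of all tested genes. The first pair of lists covers the hydroxylation and glycosylation of collagen, and its folding in and export from the endoplasmic reticulum. Of 14 tested enzymes and partners of hydroxylation and glycosylation 3 rose, none fell and 11 did not pass, with a median log2 fold change of 0.05. P4HB, the shared subunit of prolyl 4-hydroxylase, was at 48.4, 50.4 and 49.4 FPKM in NC and 58.6, 58.6 and 59.6 in siPOLR1F, a log2 fold change of 0.26 (adjusted p = 0.00454, edgeR). P3H4, a partner of lysyl hydroxylation, rose by 0.25 (adjusted p = 0.0232, edgeR) and COLGALT1, which adds galactose to hydroxylysine, by 0.19 (adjusted p = 0.0338, edgeR). Of 14 genes of folding and export 2 rose, 1 fell and 11 did not pass, with a median of 0.07. The chaperone HSPA5 rose by 0.29 (adjusted p = 0.0162, edgeR) and the channel gene TMEM38B by 0.33 (adjusted p = 0.024, edgeR), while SEC23A, a coat protein of the vesicles that carry procollagen out of the endoplasmic reticulum, fell by 0.27 (adjusted p = 0.0109, edgeR). SERPINH1, the collagen-specific chaperone, was named after its value was seen and had a log2 fold change of 0.07 (adjusted p = 0.392, edgeR).

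Outside the cell, 2 of 7 tested genes of propeptide cleavage and cross-linking fell by edgeR, as did 2 of 4 tested fibril assembly partners. None of either list rose. Over all tested genes 6.94% were lower and 10.3% higher, and these lists were chosen with earlier results of these data known. The median was -0.23 over 7 genes of propeptide cleavage and cross-linking and -0.30 over 4 fibril assembly partners. Of the former, LOX, a lysyl oxidase that starts cross-links, was at 78.1, 72.9 and 74.3 FPKM in NC and 56.9, 58.9 and 58.1 in siPOLR1F, and fell by 0.37 on the log2 scale (adjusted p = 0.00187, edgeR). LOXL1, a related oxidase of elastic fibres, was at 5.75, 4.61 and 5.73 and at 2.96, 3.49 and 3.38, and fell by 0.70 (adjusted p = 0.00548, edgeR). The groups were apart for both. LOXL2, the most abundant lysyl oxidase here at 128 FPKM in NC, was named after its value was seen. Its log2 fold change of -0.15 did not pass (adjusted p = 0.0817, edgeR). Among the partners, the adaptor MATN2 fell by 0.83 (adjusted p = 0.000435, edgeR) and the glycoprotein FN1 by 0.44 (adjusted p = 0.0126, edgeR); SPARC, which binds collagen, and TGFBI did not pass.

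Of 5 tested collagen receptors, ITGA2, the integrin chain that binds fibrillar collagen, rose by 0.34 (adjusted p = 0.0443, edgeR), the other 4 did not pass, and the median was -0.13. Of 6 genes of collagen breakdown 2 rose and 4 did not pass, with a median of 0.05. MMP1, the interstitial collagenase that cuts types I and III, was at 1133, 1201 and 1256 FPKM in NC and 1790, 1739 and 1893 in siPOLR1F. The log2 fold change was 0.60 (SE 0.05; adjusted p = 0.000245, edgeR). Its siPOLR1F libraries all lay above its NC libraries, and its level was far above that of any collagen. The lysosomal protease CTSL rose by 0.27 (adjusted p = 0.0239, edgeR).

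**Figure D4:**
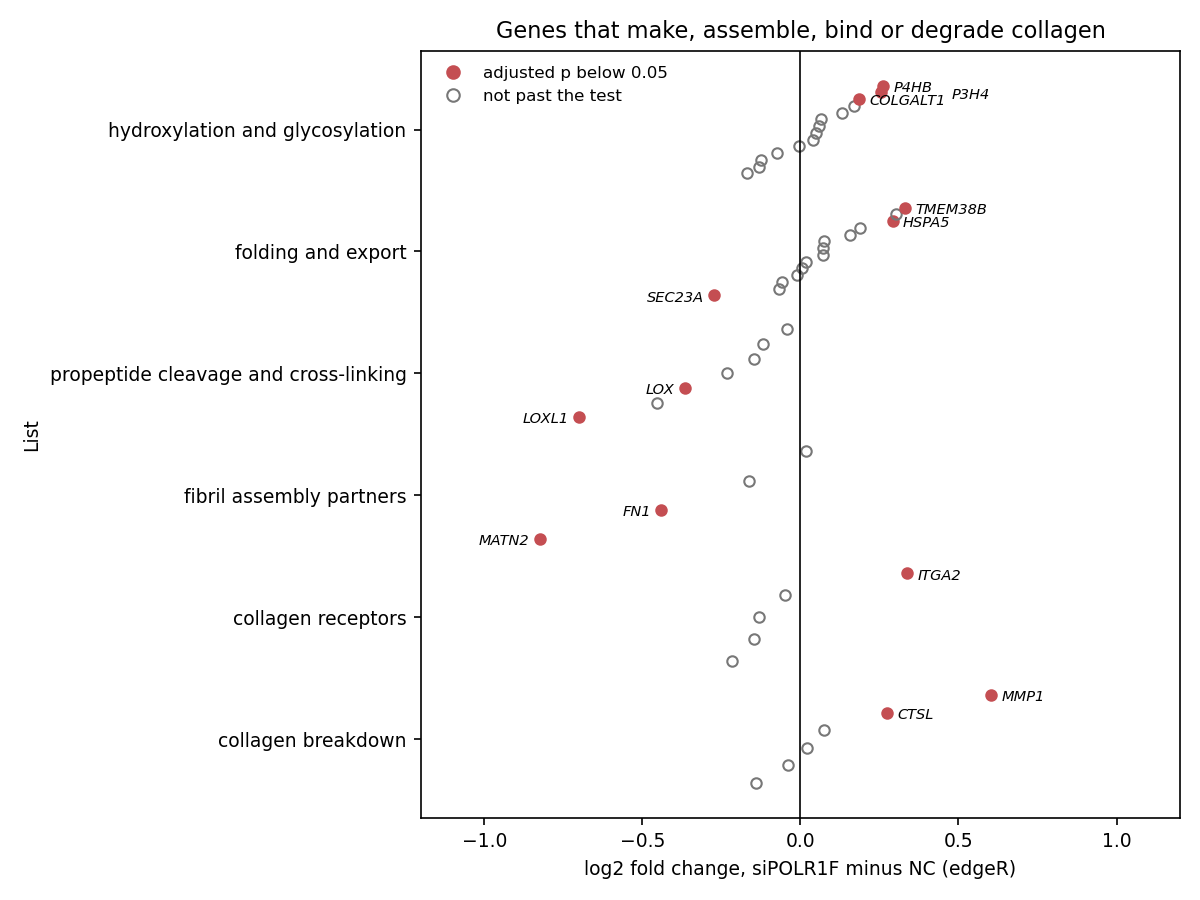
Log2 fold change (siPOLR1F minus NC) of the tested genes in 6 lists around collagen, filled and named where the edgeR adjusted p was below 0.05. MMP1 (0.60) has the largest rise and MATN2 (-0.83) the largest fall; the named genes of cross-linking and fibril assembly lie left of 0.

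P4HB, SEC23A, LOX, LOXL1, MATN2, FN1 and MMP1 passed the edgeR test without any single library, and the other 6 named genes did not. COLGALT1 failed without any library but NC replicate 2 (edgeR adjusted p from 0.0612 to 0.12), CTSL (0.053 to 0.0825) and ITGA2 (0.0591 to 0.131) without any but NC replicate 1, and P3H4 without any but NC replicates 1 and 3 (0.0612 to 0.0798). TMEM38B failed without any but replicate 2 of either group (0.0546 to 0.0739), and HSPA5 without siPOLR1F replicate 1 (0.0533) or 3 (0.0607). Genes called higher in these lists therefore numbered 2 to 6 with 1 library left out, and those called lower 5 to 6. Without the 3 libraries with VWF and KDR reads, MMP1 (0.68 on the log2 scale; adjusted p = 0.026, edgeR) and FN1 (-0.68; adjusted p = 0.0318, edgeR) were the 2 named genes that still passed.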

How the data were processed

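Poly(A) RNA libraries (3 NC, 3 siPOLR1F) were grouped and numbered by the labels, and all carry the same batch label. fastp, HISAT2 and StringTie with GRCh38 (hg38) are named in the submitters' processing notes; for their versions, the annotation and the strand setting, no source used here gives a statement. The authors deposited whole-number counts and FPKM per gene, and both were used as deposited. The collagens and lists were chosen with earlier results of these data known. Counts were tested with edgeR 4.0.16 (TMM, glmQLFit, glmQLFTest; R 4.3.3). The two-sided test covered 13564 genes averaging 0.5 FPKM or more (99.4% of counts), with Benjamini-Hochberg adjustment over all of them and a threshold of 0.05. The SE is the log2 fold change divided by the square root of F, and 95% intervals use its t quantile. Ratios were compared by exact permutation over libraries. No pair of libraries agreed within sampling noise (chi-square per degree of freedom 20.4 to 114). Named genes were POLR1F, every expressed collagen and, per list, up to 4 genes past the test with the smallest adjusted p; 76 of 77 list symbols were in the table. Other rows overlapping an expressed collagen numbered 9, with at most 8.5 counts on average. Promoters came from RefSeq (GRCh38.p14) and exons from GENCODE 29, a release that may differ from the authors' annotation. Alternatives were DESeq2 1.42.0, limma 3.58.1 on log2(FPKM + 1) and log2(FPKM + 0.1), other filters and size factors, a replicate block, and fits without single libraries.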

Additional observations from a re-analysis of the deposited data

How the results depend on the processing

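The fall of POLR1F and its call were kept under all 15 alternatives, and that of COL12A1 under 14 of 15. COL6A1 passed in 8 of 15 (edgeR, DESeq2 or limma adjusted p from 0.0021 to 0.123) and was lower in each. Called collagens numbered 1 lower with no filter on low values, 1 to 2 with 1 library left out, and 0 without the 3 libraries with VWF and KDR reads, an alternative chosen after seeing the data in which the lone siPOLR1F library is assumed to vary like the NC libraries. Of the genes around collagen, 2 to 6 were called higher and 5 to 6 lower with 1 library left out. Without the 3 libraries 1 such gene was called higher and 1 lower, and 84 and 30 of all genes, against 1391 and 942 with all libraries; with no filter these were 663 and 313, and with 1 library left out as few as 730 and 423. At a mean of at least 0.1 FPKM, 24 collagens were expressed, and 14 to 15 with 1 library left out. Changes that missed the test changed sign for COL5A1 with no filter (0.0070) and filterByExpr (0.023), for COL4A6 without the 3 libraries (-0.061) and with 1 library left out, over which COL5A1 ranged from -0.090 to 0.059, COL4A6 from -0.028 to 0.22 and COL1A1 from -0.36 to 0.068. The labels number replicates 1 to 3 in both groups, but do not say that a number marks a shared culture or day. The planned main fit therefore did not treat same-numbered libraries as pairs. Deviations of same-numbered libraries correlated at 0.293, 0.0157 and 0.274, and each library correlated best with its own number. With the replicate block, 0 collagens were called higher and 2 lower, 1517 and 1125 of all genes, and POLR1F had a log2 fold change of -2.31.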
